A study of Mus musculus with 15 samples.

Results

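The Slc25 genes encode the mitochondrial carriers, proteins that move metabolites, nucleotides, cofactors and ions across the inner mitochondrial membrane (a few sit in the outer membrane or in peroxisomes). Members were all genes whose symbol in the platform annotation is Slc25a followed by a number, taken from probe sets with 1 gene symbol, and each gene was read on its probe set with the largest standard deviation (SD) over the 15 arrays. This gave 44 genes on 93 probe sets, of 18193 genes on the array. Of the 44, 40 were tested; Slc25a2, Slc25a18, Slc25a31 and Slc25a54 had probe sets that followed the array background alone. The choice of probe set used the spread over all arrays but not the group labels.

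Hepatocytes came from male C57BL/6 mice, and the labels name no genetic change or drug in any group. Cells had been kept for 4 h or 24 h as three-dimensional aggregates in the rotating wall vessel (RWV), a slowly turning culture chamber. Others had been kept equally long as a monolayer in the tissue culture dish (TCD), and freshly isolated cells (0 h) gave the baseline. Each of the 5 groups had 3 arrays, described as independent biological replicates, and no age is given for the mice. The values are log2 signals from which the median of the 3 fresh arrays had been subtracted in every probe set, so each value below is a log2 change from fresh cells. Levels cannot be compared between genes on this scale, nor can an expressed gene be told from a silent one. TCD 4 h replicate 2 stood apart in its hybridisation controls, whose median was 1.08 against -0.73 to 0.18 in the other arrays. The counts that use it are also given without it.

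Carriers of this family share a fold built from repeated membrane-spanning units, and most work by exchange, letting 1 solute in as another leaves. They connect the mitochondrial matrix with the cytosol in energy supply, the urea cycle, fat oxidation and synthesis, and heme and iron-sulfur cluster assembly. Hepatocytes depend on several of them at once, because ornithine, citrulline, aspartate, citrate and acylcarnitines all cross this membrane in liver metabolism.

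The start regions of 3 members that differed between the vessels at 24 h are shown as examples of the sequence next to these genes. They are the 250 bases before the start of Slc25a47 (chr12:108850879-108851128, plus strand), which had the largest difference, of Slc25a12 (chr2:71367756-71368005, minus strand), an aspartate-glutamate carrier, and of Slc25a24 (chr3:109122899-109123148, plus strand), which was lower in RWV. The sequences are RefSeq, build GRCm38.p6, written 5′ to 3′ on the strand of the gene, and capitals mark matches to any of 5 short motifs on either strand.
Slc25a47: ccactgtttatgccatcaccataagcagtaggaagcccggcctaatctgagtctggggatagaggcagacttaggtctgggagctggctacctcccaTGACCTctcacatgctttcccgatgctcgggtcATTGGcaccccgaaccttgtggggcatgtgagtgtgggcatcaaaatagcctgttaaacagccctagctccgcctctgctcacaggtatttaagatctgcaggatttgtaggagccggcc
Slc25a12: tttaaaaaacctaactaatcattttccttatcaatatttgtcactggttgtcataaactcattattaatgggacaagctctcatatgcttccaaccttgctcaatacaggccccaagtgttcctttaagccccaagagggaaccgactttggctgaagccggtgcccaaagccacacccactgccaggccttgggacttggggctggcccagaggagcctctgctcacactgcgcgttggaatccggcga
Slc25a24: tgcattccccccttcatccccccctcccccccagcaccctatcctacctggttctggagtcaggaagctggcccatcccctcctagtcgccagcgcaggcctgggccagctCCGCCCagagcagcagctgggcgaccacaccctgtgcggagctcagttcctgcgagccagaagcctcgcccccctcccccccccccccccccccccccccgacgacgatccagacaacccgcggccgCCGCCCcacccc
The motifs were the E-box CACGTG, the cyclic AMP response element TGACGTCA, the CCAAT box, the GC box GGGCGG and the nuclear receptor half-site AGGTCA, none of which contains another. The Slc25a47 window held 1 CCAAT box and 1 half-site and was 54.4% G or C. The Slc25a12 window held no match and was 49.6% G or C. The Slc25a24 window held 2 GC boxes and was 72.8% G or C, against a median of 52.4% over all windows.

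RefSeq start regions were matched for 34 of the 44 members, as 43 windows. The GC box occurred in 74.4% of the member windows and in 32.7% of the 32851 windows of all genes. The E-box occurred in 18.6% of member windows against 6.02% of all windows. The CCAAT box was found in 46.5% against 33.8%, the cyclic AMP response element in 4.65% against 1.55%, and the half-site in 9.30% against 14.0%. These shares are descriptions of letters in windows, and a gene with several starts adds several windows. The members higher in RWV at 24 h had 12 windows, of which 9 held a GC box, 6 a CCAAT box, 2 a half-site and 1 an E-box.

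At 24 h, 11 of the 40 tested members were higher in RWV than in TCD and 2 were lower, and 27 did not pass the test. The test was limma on all 15 arrays, with Benjamini-Hochberg adjustment over 12423 genes and a threshold of 0.05 on the adjusted p. Across all genes 15.2% were called, 8.36% higher and 6.86% lower, against 32.5% of the tested members. The median difference over the tested members was 0.24 on the log2 scale, against a median of -0.0010 over all genes tested, and 26 of the 40 differences were positive. Over all 44 members, background probe sets included, the median was 0.15. Fewer cells of a type and less RNA per cell cannot be told apart in such bulk samples.

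**Figure D1:**
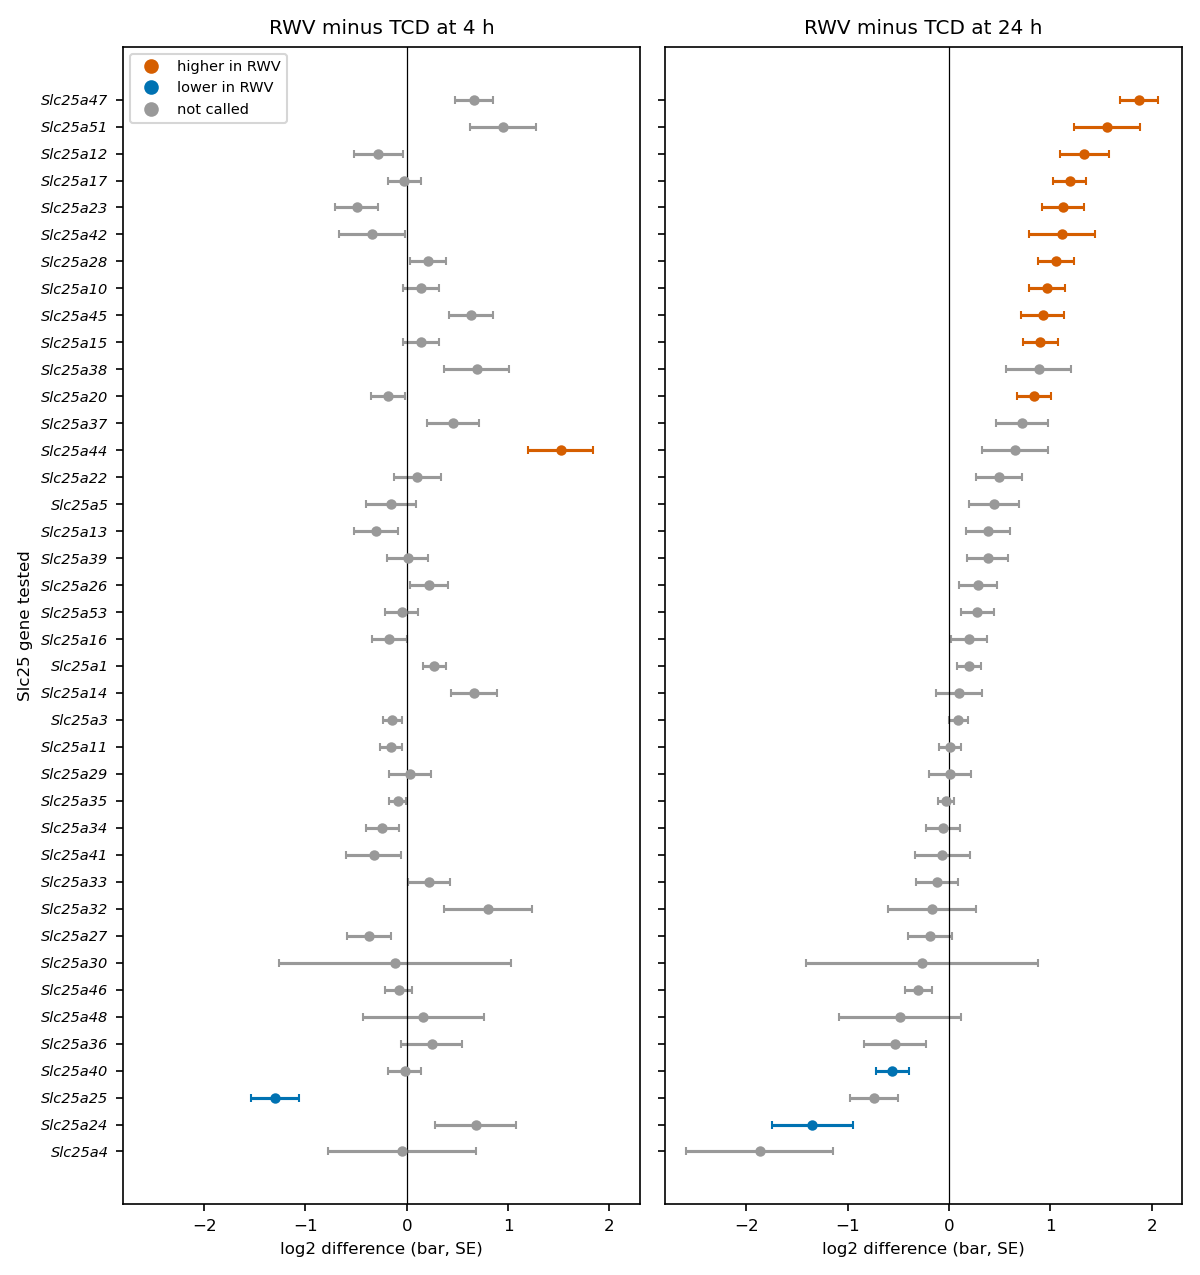
Log2 difference, RWV minus TCD, for the 40 tested Slc25 genes at 4 h (left) and 24 h (right), with the SE as bars and n = 3 arrays a group. At 24 h, 11 genes were higher in RWV (orange) and 2 lower (blue), and at 4 h 1 was higher and 1 lower.

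Among the adenine nucleotide and phosphate carriers, 1 of 7 tested members was higher in RWV at 24 h and 1 was lower. Slc25a23 and Slc25a24 are calcium-regulated carriers that exchange ATP-magnesium for phosphate. Slc25a23 had -3.20, -2.31 and -2.56 in RWV arrays at 24 h, against -3.80, -3.70 and -3.95 in TCD arrays. All 3 RWV values lay above all 3 TCD values, a difference of 1.13 ± 0.211 (SE, adjusted p = 0.00329, limma). Slc25a24 had 7.13, 5.24 and 6.84 in RWV arrays at 24 h, against 7.88, 7.55 and 7.82 in TCD arrays. Its RWV values lay below the TCD values, replicate 2 by most, with a difference of -1.35 ± 0.400 (SE, adjusted p = 0.04, limma). Without RWV 24 h replicate 2 that difference was -0.77 with an adjusted p of 0.0859, and without any 1 of the TCD 24 h arrays the adjusted p was between 0.0787 and 0.108. Both of its probe sets were lower in RWV when each was tested by itself.

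Slc25a4 and Slc25a5 encode the ADP/ATP exchangers, the form most abundant in heart and muscle and the form typical of dividing cells. Slc25a4 had 3.37, 1.77 and 3.17 in RWV arrays at 24 h, against 4.56, 4.28 and 5.06 in TCD arrays. The arrays did not overlap, yet the difference of -1.87 ± 0.728 (SE) did not pass the test (adjusted p = 0.115, limma). Its replicates were far apart in fresh cells too, at 0.00, -1.05 and 1.30, and replicate 2 was the lowest in every group. Under a block for the replicate number, Slc25a4 passed with an adjusted p of 0.00224 (limma). Of its 4 probe sets 3 were off the background, and 2 of these were lower in RWV when each was tested by itself. Slc25a5 had -0.66, -0.73 and -1.24 in RWV arrays, against -1.10, -1.28 and -1.59 in TCD arrays, with overlapping groups and a difference of 0.44 that did not pass. None of its 8 probe sets passed. Slc25a3, the phosphate carrier, had 0.29, -0.00 and -0.01 in RWV arrays, against 0.00, 0.00 and -0.00 in TCD arrays. Its probe set spanned an SD of only 0.102 over all arrays, so little could be read from it.

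Slc25a25, another ATP-magnesium and phosphate carrier, had -4.32, -4.58 and -3.97 in RWV arrays at 24 h, against -3.56, -3.69 and -3.40 in TCD arrays. Its groups did not overlap, and the difference of -0.74 had an adjusted p of 0.0538 (limma), just short of the threshold.

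Of the 8 tested carriers of other nucleotides, cofactors and vitamins, 3 were higher in RWV at 24 h and none was lower. Slc25a51 carries NAD into mitochondria. It had -0.96, -1.07 and -0.75 in RWV arrays at 24 h, against -2.26, -2.72 and -2.49 in TCD arrays. The groups were well apart, with a difference of 1.56 ± 0.328 (SE, adjusted p = 0.00666, limma). Its 3 probe sets gave 1.56, 0.56 and 0.07, and the third did not pass the test. Slc25a42, which carries coenzyme A, had -3.82, -2.28 and -2.61 in RWV arrays, against -4.07, -4.25 and -3.73 in TCD arrays. RWV replicate 1 fell inside the TCD range, and the difference was 1.11 ± 0.327 (SE, adjusted p = 0.0386, limma). Without RWV 24 h replicate 2 it was 0.80, with an adjusted p of 0.16 (limma). The call was lost in 9 of 16 alternative settings.

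Slc25a17 encodes a peroxisomal carrier of coenzyme A, FAD and related cofactors. It had -0.90, -0.85 and -0.97 in RWV arrays at 24 h, against -1.72, -2.40 and -2.19 in TCD arrays. The RWV replicates were close together and all above the TCD ones, with a difference of 1.19 ± 0.161 (SE, adjusted p = 0.000386, limma). The other probe set of this gene was flat over all arrays (SD 0.0685) and gave -0.01.

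**Figure D2:**
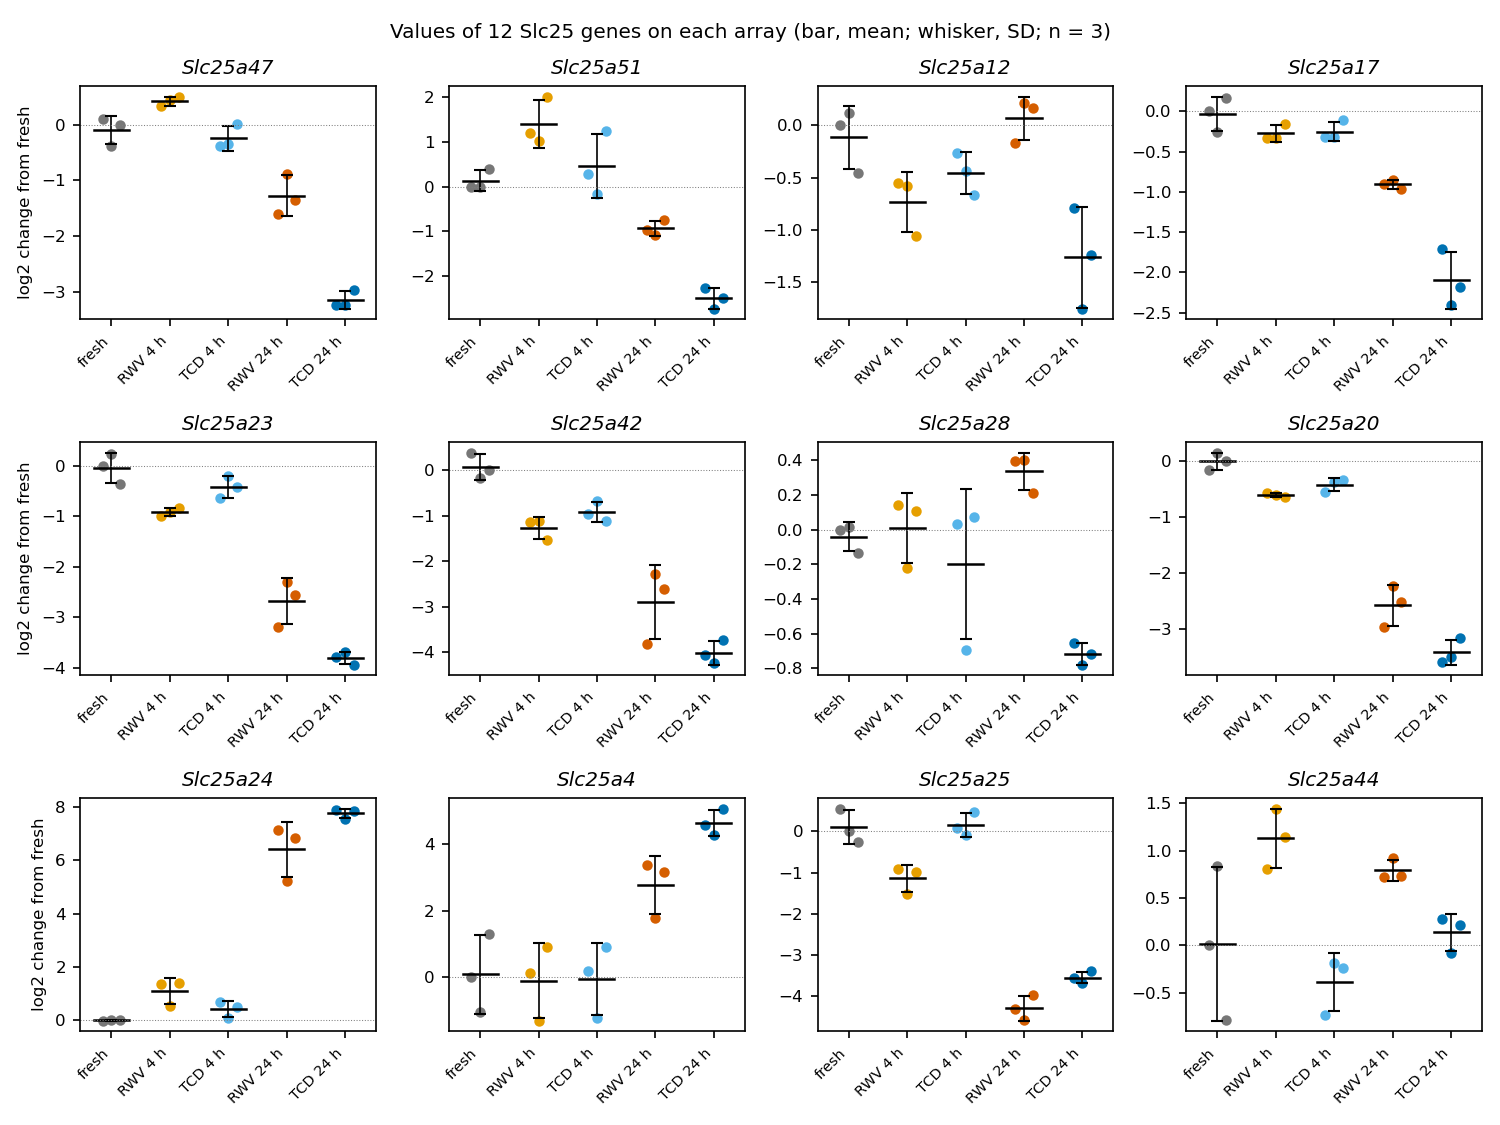
Log2 change from fresh on each array (points), with the group mean (bar) and SD (whisker, n = 3), for 12 Slc25 genes in fresh, RWV 4 h, TCD 4 h, RWV 24 h and TCD 24 h cells. Slc25a47 lay between -1.60 and -0.88 in RWV cells at 24 h and between -3.24 and -2.97 in TCD cells, while Slc25a24 was above 5 on every 24 h array.

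The amino acid and glutathione carriers had 2 of 9 tested members higher in RWV at 24 h and 1 lower, and 8 of the 9 differences were positive. Slc25a12 and Slc25a13 are the aspartate-glutamate carriers of the malate-aspartate shuttle, and Slc25a13, called citrin, is the main form in liver. Slc25a12 had -0.17, 0.21 and 0.16 in RWV arrays at 24 h, against -0.80, -1.76 and -1.24 in TCD arrays. At 24 h the RWV arrays lay in or just above the fresh range of -0.45 to 0.12 and every TCD array lay below it, a difference of 1.33 ± 0.242 (SE, adjusted p = 0.00273, limma). Slc25a13 had -2.52, -2.53 and -2.17 in RWV arrays, against -2.29, -3.20 and -2.88 in TCD arrays. Its groups overlapped, and the difference of 0.39 did not pass (adjusted p = 0.296, limma). Whether the vessel difference of Slc25a12 was larger than that of Slc25a13 was not tested.

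Slc25a15 exchanges ornithine and citrulline for the urea cycle. It had -3.10, -2.78 and -3.33 in RWV arrays at 24 h, against -3.74, -4.01 and -4.17 in TCD arrays. All RWV arrays lay above all TCD arrays, with a difference of 0.90 ± 0.176 (SE, adjusted p = 0.00413, limma). The member lower in RWV was Slc25a40, a mitochondrial glutathione carrier, which falls outside the naming rule and is given to complete the count. It had 0.16, -0.04 and -0.07 in RWV arrays, against 0.37, 0.98 and 0.36 in TCD arrays, a small difference of -0.56 ± 0.167 (SE, adjusted p = 0.0417, limma). Without TCD 24 h replicate 2 the difference was -0.35 and did not pass (adjusted p = 0.149), nor did it pass without RWV 24 h replicate 2 (0.128) or replicate 3 (0.123).

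The single acylcarnitine carrier, Slc25a20, brings fatty acylcarnitines into the matrix for oxidation. It had -2.97, -2.24 and -2.52 in RWV arrays at 24 h, against -3.59, -3.49 and -3.16 in TCD arrays. The groups did not overlap, with a difference of 0.84 ± 0.171 (SE, adjusted p = 0.00552, limma). Both mitoferrins, the iron carriers, had positive differences. Slc25a28, mitoferrin 2, had 0.40, 0.40 and 0.21 in RWV arrays, against -0.65, -0.78 and -0.71 in TCD arrays. The groups did not overlap, and the difference was 1.05 ± 0.178 (SE, adjusted p = 0.00168, limma). Slc25a37, mitoferrin 1, had 0.06, 0.38 and 0.40 in RWV arrays, against -0.71, -0.66 and 0.05 in TCD arrays, and its difference of 0.72 did not pass (adjusted p = 0.0814, limma), though without TCD 24 h replicate 3 it was 0.97 and passed (adjusted p = 0.0294).

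Of the 3 tested di- and tricarboxylate carriers, 1 was higher in RWV at 24 h. This was the dicarboxylate carrier Slc25a10, named to complete the count, with -1.98, -1.70 and -1.81 in RWV arrays, against -3.04, -2.57 and -2.79 in TCD arrays. Its groups did not overlap (difference 0.97 ± 0.177, SE, adjusted p = 0.00289, limma). Slc25a1, which exports citrate for fatty acid synthesis, had 0.39, 0.73 and 0.46 in RWV arrays, against 0.33, 0.39 and 0.25 in TCD arrays. The groups overlapped, and the difference of 0.20 did not pass (adjusted p = 0.321, limma).

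Among 7 tested carriers of unsettled or other role, 2 were higher in RWV at 24 h. Slc25a47, an inner membrane carrier found mainly in liver, had -1.60, -0.88 and -1.34 in RWV arrays, against -3.24, -3.24 and -2.97 in TCD arrays. Every RWV array lay above every TCD array by over 1 log2 unit, with a difference of 1.87 ± 0.188 (SE, adjusted p = 4.51e-05, limma), or 3.67-fold. Slc25a47 had 1 probe set, of a kind that may share sequence with other genes. Slc25a45, named to complete the count, had -2.23, -1.62 and -2.30 in RWV arrays, against -3.03, -2.86 and -3.04 in TCD arrays (difference 0.92 ± 0.214, SE, adjusted p = 0.0116, limma). Its groups were apart, and without RWV 24 h replicate 2 the adjusted p was 0.0509. None of the 3 tested relatives of the uncoupling proteins passed in limma's test, and none had an unadjusted p under 0.05.

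**Figure D3:**
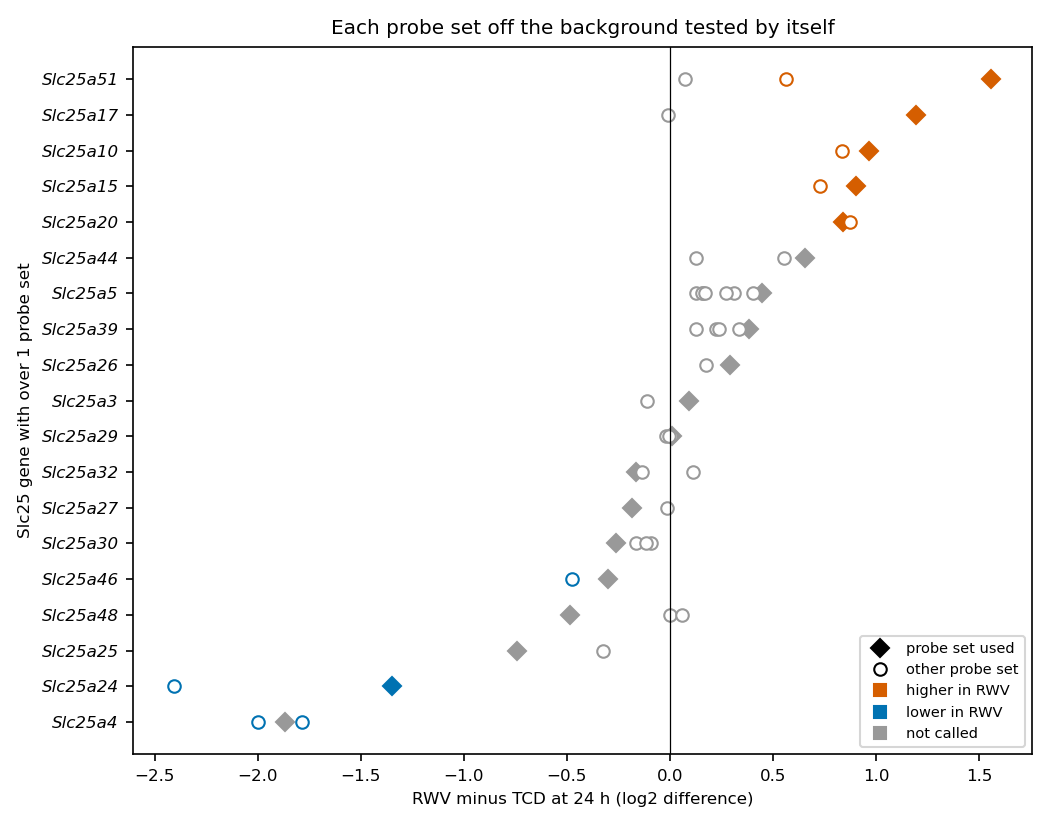
RWV minus TCD at 24 h (log2 difference) for each probe set of the 19 Slc25 genes with over 1 probe set off the background, each tested by itself. Filled diamonds are the probe sets used and open circles the others; orange, blue and grey mark higher in RWV, lower in RWV and not called, and Slc25a17 and Slc25a51 show probe sets that differ from each other.

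At 4 h, 1 of the 40 tested members was higher in RWV than in TCD and 1 was lower, 5% of the members against 6.17% of all genes (5.5% higher, 0.668% lower). Slc25a44, a carrier of branched-chain amino acids, had 0.81, 1.44 and 1.15 in RWV arrays at 4 h, against -0.74, -0.18 and -0.24 in TCD arrays. All RWV arrays lay above the fresh median and all TCD arrays below it, with a difference of 1.52 ± 0.324 (SE, adjusted p = 0.0178, limma). Its fresh arrays were at 0.00, 0.84 and -0.79, a range that held every TCD array and RWV replicate 1. Of its 3 probe sets 2 were called, and the adjusted p was 0.0676 without RWV 4 h replicate 2 and 0.06 without replicate 3. Slc25a25 had -0.91, -1.51 and -0.997 in RWV arrays, against 0.09, -0.09 and 0.47 in TCD arrays. The RWV arrays were all lower, with a difference of -1.30 ± 0.237 (SE, adjusted p = 0.00852, limma). Of its 3 probe sets, the 2 off the background were both called. Without TCD 4 h replicate 2 the differences were 1.62 for Slc25a44 and -1.42 for Slc25a25, and the counts were again 1 higher and 1 lower. In that setting these were 5% of the members against 4.07% of all genes. With no background filter 10 of 44 members were called at 4 h, 22.7% against 38.1% of all genes. With the replicate number as a block, Slc25a51 was also called at 4 h (adjusted p = 0.0339). Its arrays were at 1.19, 1.003 and 2.002 in RWV, against 0.27, -0.16 and 1.23 in TCD, and the groups overlapped. The 3 probe sets of Slc25a51 gave vessel differences from 0.08 to 0.95 at 4 h, and 1 was called when each was tested by itself.

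Whether the vessel difference itself changed with time was asked with an interaction term, the 24 h difference minus the 4 h difference. It was called positive for 6 of the 40 members and called negative for 1. These were 17.5% of the members, against 12.7% of all genes (4.93% positive, 7.73% negative). Without TCD 4 h replicate 2 the interaction was called positive for 7 and negative for 0, 17.5% of members against 13.3% of all genes. In that setting it was 1.52 for Slc25a23, 1.61 for Slc25a12, 1.25 for Slc25a17, 1.27 for Slc25a47, 1.0002 for Slc25a20 and 1.10 for Slc25a28, all still called, and -1.87 for Slc25a24, which was not. For Slc25a23 the RWV minus TCD difference was larger by 1.62 ± 0.298 (SE, adjusted p = 0.00505, limma) at 24 h than at 4 h. At 4 h Slc25a23 had stood at -0.999, -0.91 and -0.85 in RWV arrays, against -0.64, -0.21 and -0.42 in TCD arrays. The order of the arrays was thus the other way at 4 h, but that difference of -0.50 did not pass (adjusted p = 0.208, limma). Slc25a12 had an interaction of 1.62 ± 0.343 (SE, adjusted p = 0.0103, limma). Its 4 h values were -0.55, -0.58 and -1.06 in RWV arrays, against -0.26, -0.44 and -0.67 in TCD arrays.

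Slc25a17 had an interaction of 1.22 ± 0.228 (SE, adjusted p = 0.00562, limma), with 4 h arrays of -0.34, -0.34 and -0.15 in RWV, against -0.32, -0.32 and -0.11 in TCD. The vessels were thus alike in range at 4 h and apart at 24 h. Slc25a24 had the only negative interaction that was called, -2.03 ± 0.565 (SE, adjusted p = 0.0359, limma). Its 4 h arrays were at 1.36, 0.55 and 1.40 in RWV, against 0.69, 0.10 and 0.49 in TCD. The remaining called members, Slc25a47, Slc25a20 and Slc25a28, had interactions of 1.21, 1.03 and 0.85. The call of Slc25a28 was lost without most single arrays of these groups (adjusted p up to 0.101), and that of Slc25a24 without 1 of the TCD 24 h arrays (adjusted p between 0.0585 and 0.0758), RWV 4 h replicate 1 or 3 (0.078 and 0.0834) or TCD 4 h replicate 2 or 3 (0.0698 and 0.0526).

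Each cultured group was also set against fresh cells. The comparisons share the fresh arrays, so their values are given side by side. At 24 h, 4 of the 40 members were higher and 15 lower in RWV than in fresh cells, 47.5% of members against 49.9% of all genes (30.7% higher, 19.2% lower). In TCD cells at 24 h, 6 were higher and 19 lower than in fresh cells, 62.5% against 56.2% of all genes (32.8% higher, 23.4% lower). The median change of the tested members was -0.18 in RWV and -0.51 in TCD at 24 h, where all genes had medians of 0.01 and -0.01. Centring the arrays on reference genes instead gave 2 higher and 26 lower members in RWV, and 2 and 29 in TCD. These are 70% and 77.5% of the tested members, against 68.5% and 73.3% of all genes under that centring.

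**Figure D4:**
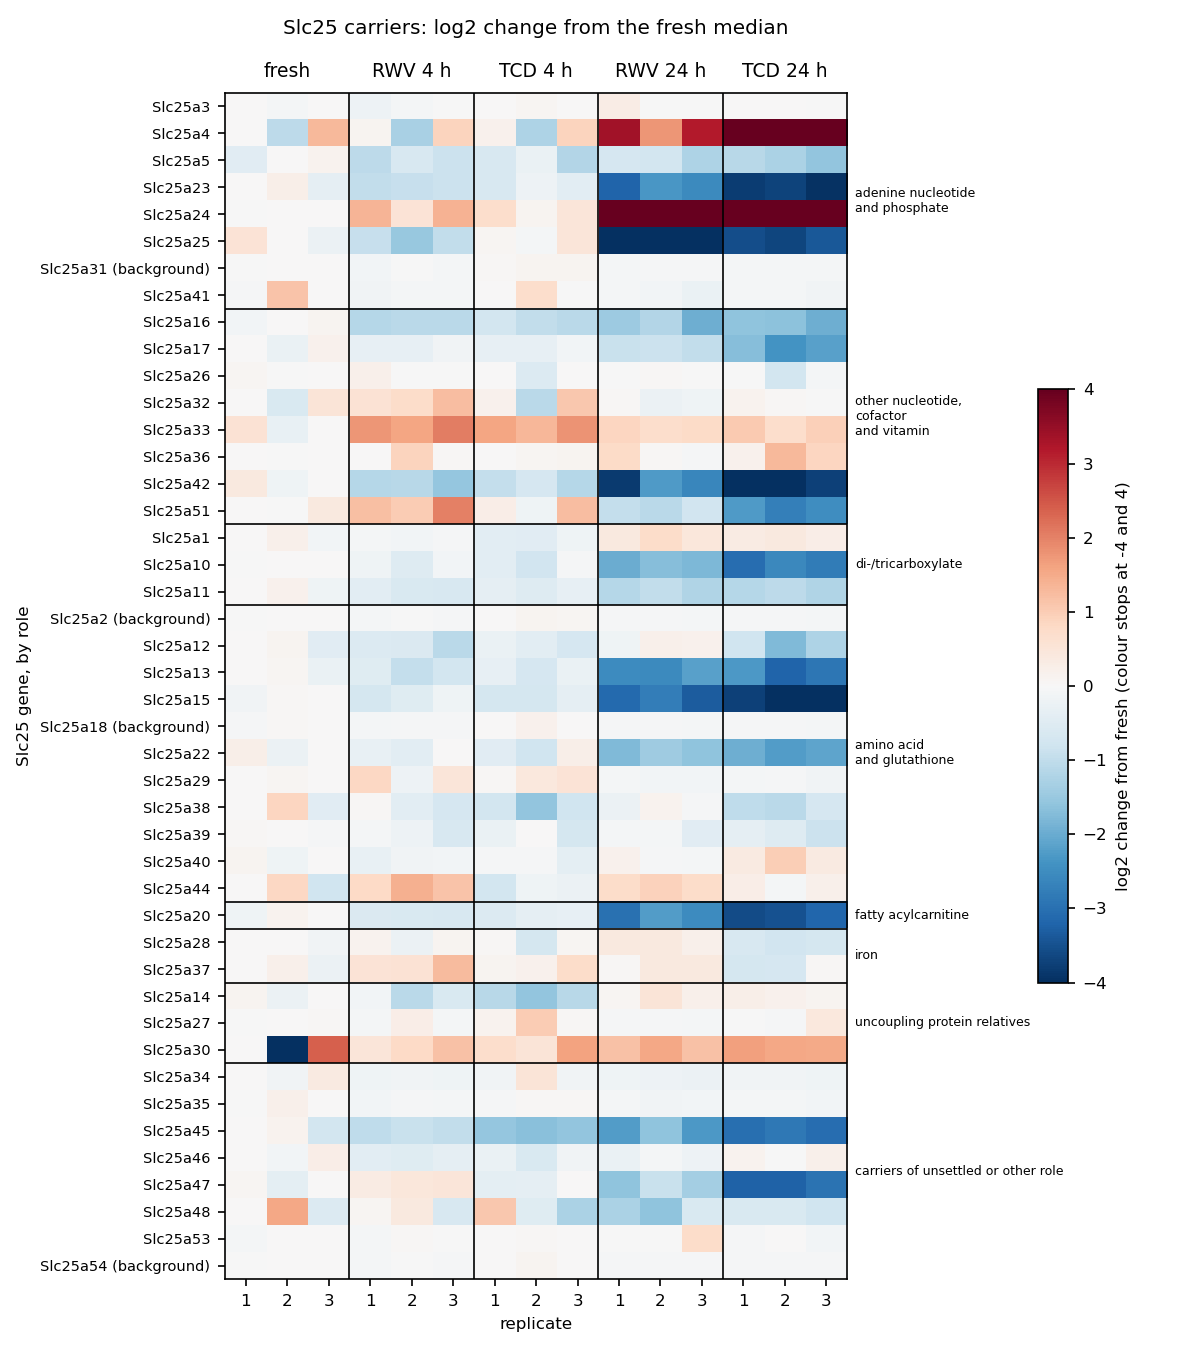
Log2 change from the fresh median on each of the 15 arrays (columns, by group and replicate) for all 44 Slc25 genes (rows, by role); red is higher and blue lower than fresh, and the colour stops at -4 and 4. Blue cells fill the 24 h columns of Slc25a25, Slc25a42, Slc25a15 and Slc25a20, and red cells those of Slc25a24 and Slc25a4.

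Slc25a15 and Slc25a20 fell at 24 h in both vessels. Slc25a15 changed by -3.03 in RWV and by -3.93 in TCD against fresh arrays of -0.15, 0.03 and 0.00. For Slc25a20 the changes were -2.57 in RWV and -3.41 in TCD. The ATP-magnesium carriers Slc25a25 and Slc25a23 also fell. The change of Slc25a25 was -4.39 in RWV and -3.65 in TCD. Its other probe set off the background gave -2.10 in RWV and -1.77 in TCD, both called lower. The change of Slc25a23 was -2.65 in RWV and -3.78 in TCD. Slc25a42 changed by -2.97 in RWV and -4.08 in TCD, and citrin, Slc25a13, by -2.34 in RWV and -2.73 in TCD. All of these passed with adjusted p of at most 1.01e-05 in limma's test, and no 24 h array reached the fresh range.

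Slc25a47 changed by -1.18 in RWV and by -3.05 in TCD, and Slc25a51 by -1.06 in RWV and -2.62 in TCD. Slc25a51's next probe set gave 0.18 in RWV, so its fall there rested on 1 probe set. Slc25a5 changed by -0.77 in RWV and -1.22 in TCD, with 7 and 8 of its 8 probe sets called lower. Slc25a12 and Slc25a28 fell in TCD cells, with changes of -1.15 and -0.68.

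Slc25a24 and Slc25a4 rose at 24 h in both vessels. Slc25a24 changed by 6.40 in RWV and 7.75 in TCD, against fresh arrays of -0.01, 0.00 and 0.02. Fresh values this flat are also seen in background probe sets such as that of Slc25a2 (-0.01, 0.00 and 0.03), and the part of a lower limit of the fresh signal in the size of this rise was not tested. Its other probe set gave 2.38 in RWV and 4.79 in TCD, both called higher. Slc25a4 changed by 2.68 ± 0.728 in RWV (SE, adjusted p = 0.00816, limma) and by 4.55 in TCD. Of its 3 probe sets off the background, 2 were called in RWV and 3 in TCD. Slc25a1 rose by 0.49 in RWV and 0.29 in TCD, and both turned negative with reference-gene centring, at -0.059 in RWV and -0.22 in TCD. The TCD call (adjusted p = 0.0489, limma) was also lost without any 1 TCD 24 h array or fresh replicate 1 or 3. Slc25a33, a carrier of pyrimidine nucleotides, rose by 0.68 in RWV and 0.80 in TCD. With reference-gene centring its values were 0.13 in RWV and 0.29 in TCD and neither was called, and the RWV call was also lost without fresh replicate 2 (0.48, adjusted p = 0.073), fresh replicate 3 or RWV 24 h replicate 1 (adjusted p of 0.0502 and 0.0526).

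At 4 h, 4 members were higher and 10 lower in RWV than in fresh cells, 35% of the tested members against 29.6% of all genes (15.1% higher, 14.4% lower). With arrays centred on the median of the genes tested the split was 6 higher and 8 lower. This was 35% of members against 28.8% of all genes, of which 2052 were higher and 1529 lower. In TCD at 4 h, 1 member was higher and 8 lower, 22.5% of members against 25.5% of all genes (9.54% higher, 15.9% lower). Without TCD 4 h replicate 2 the counts were 1 higher and 5 lower, 15% of members against 24.1% of all genes. Slc25a33 rose in both, with 1.76, 1.56 and 2.05 in RWV arrays and 1.57, 1.34 and 1.79 in TCD arrays, against 0.58, -0.31 and 0.00 in fresh arrays. No cultured array lay within the fresh range. Its change was 1.70 in RWV and 1.47 in TCD at 4 h, larger than the 24 h changes given above, although the time difference was not tested.

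In RWV at 4 h, Slc25a51 rose by 1.27 and Slc25a42 and Slc25a25 fell by 1.34 and 1.24. The rise of Slc25a51 was not seen in RWV alone. In TCD at 4 h its 3 probe sets gave 0.32 to 1.92, and 2 were called higher when each was tested by itself. The probe set used gave the 0.32, which was not called. In TCD at 4 h, Slc25a45 and Slc25a14, a relative of the uncoupling proteins, fell by 1.41 and 1.22. Without TCD 4 h replicate 2 the TCD changes were -1.37 for Slc25a45, -1.06 for Slc25a14 and 1.59 for Slc25a33, all still called. With the replicate number as a block, Slc25a24 was also called higher in RWV at 4 h (1.10, adjusted p = 0.0164). With the block Slc25a15 and Slc25a42 were no longer called in TCD at 4 h, with adjusted p of 0.0509 and 0.0565, and neither was called without TCD 4 h replicate 2 (adjusted p of 0.101 and 0.0521).

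Of the 40 tested members, 29 were called in at least 1 of the 7 comparisons and 11 in none. The same share was not counted for all genes, so 29 cannot be set against it. TCD at 24 h against fresh alone called 56.2% of all genes. Those 11 were Slc25a3, Slc25a26, Slc25a27, Slc25a29, Slc25a30, Slc25a32, Slc25a34, Slc25a35, Slc25a41, Slc25a48 and Slc25a53. Slc25a30 had fresh arrays of 0.00, -4.22 and 2.38, so its changes could not be read against that spread.

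Genes that work beside the carriers were read from lists chosen with earlier results known. Across all genes, 8.36% were higher and 6.86% lower in RWV than in TCD at 24 h. For the vessel comparison at 24 h, 3 of 5 tested genes of citrate export and use were higher in RWV, led by Acaca (2.38) and Fasn (1.64), the enzymes that build fatty acids from cytosolic acetyl-CoA. Of 6 malate-aspartate and glycerol phosphate shuttle enzymes, 2 were higher, Gpd1 (2.20) and Gpd2 (1.36), and 2 were lower. Of 8 carnitine shuttle and oxidation enzymes, 3 were higher, among them Cpt2 (0.61) and Hadha (0.45), and 1 was lower. Among 8 urea cycle and ornithine enzymes, 1 was higher and 3 were lower, with Cps1 at -1.55 and Oat at -1.33, whereas the ornithine carrier Slc25a15 was higher.

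Of 7 mitochondrial one-carbon and folate enzymes 2 were higher, led by the cytosolic enzyme Shmt1 (2.15), and 2 were lower, led by Aldh1l2 (-1.41). Heme and iron-sulfur genes had 3 of 6 higher, with Ppox at 1.14 and Nfs1 at 0.60. Of 7 regulators of mitochondrial genes 2 were higher, Ppara (2.30) and Ppargc1b (2.21). Other inner membrane transporters had 2 of 8 higher, the sideroflexins Sfxn5 (2.17) and Sfxn1 (1.07). The carrier import machinery had 1 of 12 genes higher, Timm10b (0.45), a share like the 8.36% of all genes. The calls of Timm10b and Fasn were close to the threshold (adjusted p of 0.0443 and 0.0476, limma). None of 3 tested carrier genes under other symbols passed in limma's test, and 0 had an unadjusted p under 0.05.

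Cholangiocyte markers were lower in RWV than in TCD. At 24 h the mean of the 4 tested cholangiocyte markers, of 7 listed, ranged from 1.56 to 2.50 in RWV arrays and from 4.35 to 5.50 in TCD arrays, and 3 of them were lower in RWV. The stellate cell and fibroblast markers, 5 tested of 8, ranged from -0.04 to 0.38 in RWV and from 1.03 to 1.14 in TCD. Reln alone was lower (-4.95), and the differences of Des, Dcn, Pdgfrb and Rgs5 lay between 0.01 and 0.08. Hepatocyte markers, all 10 tested, ranged from -1.41 to -1.18 in RWV and from -1.29 to -1.16 in TCD, with 2 higher and 1 lower. The 7 tested Kupffer cell markers of 8 ranged from 0.90 to 2.57 in RWV and from 0.81 to 1.52 in TCD, with 1 lower. Endothelial markers, 5 of 8, ranged from -1.25 to -0.76 in RWV and from -1.12 to -0.64 in TCD, with 1 higher and 1 lower.

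Of the 7 other leukocyte markers 2 were tested, and neither passed in limma's test nor had an unadjusted p under 0.05. Because values are changes from fresh, which markers are absent cannot be read. The 3′ minus 5′ signal of the beta-actin control ranged from -0.26 to -0.22 in RWV arrays at 24 h and from -0.45 to -0.43 in TCD arrays. The same difference for the Gapdh control ranged from -0.063 to -0.055 in RWV and from -0.050 to -0.015 in TCD. The part of these markers and controls in the carrier differences was not tested.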

How the data were processed

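Biotin-labelled RNA of 15 hepatocyte samples was measured on 15 Affymetrix arrays. The deposited log2 values had been made by the authors with GCRMA, per the submitters' processing notes (version not given there). The fresh arrays had a median of 0 in every probe set (tolerance 1e-06), and base 2 was assumed because GCRMA works on it. Values ranged from -11.2 to 13.6.

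Of 45101 probe sets, 64 were controls and 34945 had 1 gene symbol in the platform annotation, which can be old, 932 had several and 9160 none. Background probe sets (19608; SD under 0.5 and correlation over 0.8 with the array medians of the 20% of probe sets that vary least) were left out, and each gene was read on its probe set of largest SD, giving 12423 genes. limma 3.58.1 (lmFit, contrasts.fit, eBayes) (R 4.3.3; tables read by data.table version 1.17.8) fitted the 5 groups together without a replicate block, with 10 residual degrees of freedom; the 3 arrays a group limit the precision. The code was tested on simulated data.

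The labels do not say what a replicate number marks. Deviations from the group means of same-numbered arrays correlated above 0.1 for all 3 numbers in 5 of 10 pairs of groups. Among them were RWV and TCD at 4 h (0.368, 0.493 and 0.522) and both 4 h groups with fresh cells. The main fit used no pairing, so its SE and p leave this likeness out. The block alternative took the replicate number as shared by all groups. Alternatives were other centring, no background filter, probe set means, the next probe set (chosen after seeing the data), no shared probe sets, only the arrays compared, array weights, robust eBayes, the block and each array left out.

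Members and gene lists were chosen with earlier results of these data known. The text names the members with the largest called differences (8 for RWV against TCD at 24 h, 4 at 4 h, 4 for the interaction, and 2 in each direction for each group against fresh), 12 members whatever their values, and 2 called genes a list; members beyond this are named as such.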

Additional observations from a re-analysis of the deposited data

Results flagged for a closer look

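For 7 members the RWV minus TCD difference itself differed between 24 h and 4 h, as tested by the interaction term in limma. On the log2 scale the 24 h difference exceeded the 4 h difference by 1.62 for Slc25a23, 1.62 for Slc25a12, 1.22 for Slc25a17, 1.21 for Slc25a47, 1.03 for Slc25a20 and 0.85 for Slc25a28. For Slc25a24 the value was -2.03, the RWV arrays having a mean above that of the TCD arrays at 4 h and below it at 24 h. The order at 4 h held on the probe set used, while the second gave an RWV minus TCD difference of -0.19. Neither 4 h difference was called. The flat second probe set of Slc25a17 gave 0.08, and the second probe set of Slc25a24 gave -2.22 without passing the test.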

How the results depend on the processing

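The count of members called at 4 h between the vessels, 2 of 40, was 10 with no background filter (5 higher, 5 lower, of 44 members, 22.7% against 38.1% of all genes), 1 with only the arrays compared (0.877% of all genes) and 4 with array weights (10.4%), and ranged from 1 to 4 with 1 array left out (1 without RWV 4 h replicate 3, 4 without TCD 4 h replicate 3). With 1 array left out the counts were 9 to 13 at 24 h between the vessels, 5 to 7 for the interaction, 8 to 14 in RWV at 4 h against fresh (8 without RWV 4 h replicate 3), 5 to 11 in TCD at 4 h against fresh (5 without fresh replicate 2), 18 to 19 in RWV at 24 h and 22 to 24 in TCD at 24 h. In these fits 3.14% to 8% of all genes were called between the vessels at 4 h and 9.93% to 13.8% at 24 h. For the interaction the share was 8.61% to 13.4%. Against fresh cells it was 23.1% to 26.1% in RWV and 20.5% to 24.8% in TCD at 4 h. At 24 h it was 44% to 47.1% in RWV and 51.3% to 54.1% in TCD. TCD at 4 h against fresh had 5 calls with only the arrays compared, 12.5% of members against 12.3% of all genes. With the replicate block the counts were 3 between the vessels at 4 h, 15 at 24 h and 8 for the interaction. These were 7.5%, 37.5% and 20% of the tested members, against 6.92%, 17.7% and 15.3% of all genes. Against fresh the counts were 15, 8, 19 and 23 in RWV 4 h, TCD 4 h, RWV 24 h and TCD 24 h. Those were 37.5%, 20%, 47.5% and 57.5% of members, against 32.3%, 27.7%, 51.8% and 57.7% of all genes. All 15 arrays were closest to arrays of their own number, a hint from the data and not from the design. Under the block the adjusted p at 24 h between the vessels was 0.00224 for Slc25a4, 0.0286 for Slc25a25 and 0.038 for Slc25a37, which gained the call, and 0.0505 for Slc25a42, which lost it. Slc25a4 also gained the interaction (0.02) and Slc25a1 lost TCD at 24 h against fresh (0.0543). Counting only alternatives that tested the member, 7 of the 13 calls at 24 h between the vessels were always kept. Of the 7 interactions 4 were kept, and of the 2 calls at 4 h 0. Slc25a47 and Slc25a28 had no result without shared probe sets. A member with 1 probe set off the background kept it in the next-probe-set setting, which could not change its values. With only the arrays compared the adjusted p was 0.0566 for Slc25a20 at 24 h and 0.088 for Slc25a25 at 4 h. Centring on reference genes moved the median of all genes at 24 h against fresh to -0.54 in RWV and -0.52 in TCD, and turned Slc25a1 to -0.059 in RWV and -0.22 in TCD, Slc25a3 to -0.44 and -0.49, and Slc25a40 in RWV to -0.51. The probe set of next-largest SD turned Slc25a17 between the vessels at 24 h to -0.0083 and Slc25a51 in RWV at 24 h against fresh to 0.18. The cause of these changes was not tested. Without a measured background, the files do not show how far each signal lay above it.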
